A study of Caenorhabditis elegans with 66 samples.

Results

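SNPC-4 is a DNA-binding subunit of SNAPc, the complex that activates small nuclear RNA genes, and its sites in 48 h larvae of the nematode Caenorhabditis elegans are described here over all gene classes. Its chromatin was recovered by immunoprecipitation (IP) and sequenced (ChIP-seq), and the authors' peak lists from 3 IP libraries of snpc-4::3xflag worms, which carry a FLAG-tagged SNPC-4, were set against 3 IP libraries of the untagged wild type N2. Both groups were whole worms labelled 48h L4, the last larval stage, grown in liquid culture at 20 °C. The labels name no mutation, RNAi or drug in either group, and the series as a whole holds 66 samples, made of 33 IP libraries in 11 groups and their inputs. SNPC-4 peak regions that overlapped each other were merged, and 8279 of 9545 merged regions were called in at least 2 of the 3 libraries. Of these, 2592 overlapped a peak of any N2 library at 48 h by at least 1 bp and were set aside, which left 5687 member regions. The regions called in at least 2 of 3 libraries of any of the 11 IP groups merged to 10058.

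SNAPc binds a proximal sequence element upstream of small nuclear RNA (snRNA) genes and recruits RNA polymerase II or III, depending on the gene. In the worm it also serves the spliced leader RNA genes, whose products are joined to the 5′ ends of messenger RNAs, and the genes of piRNAs, small RNAs that guide the Argonaute PRG-1 in the germ line. Most piRNA genes sit in a smaller and a larger cluster on chromosome IV, and in hermaphrodites the L4 germ line makes sperm. Whole worms mix somatic and germ line chromatin, so occupancy in more cells and stronger occupancy per cell cannot be told apart.

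The SNPC-4 lists held 16323, 15078 and 16153 peaks, against 2370, 2930 and 947 in N2 (exact two-sided permutation test over 20 labellings, p = 0.1, the smallest that 3 against 3 libraries allow). Each peak carries a fold over its own input, as the authors' caller gave it. The highest fold was 226 to 272 in the SNPC-4 lists and 4.31 to 5.46 in the N2 lists. Folds of the member regions ranked alike in the SNPC-4 libraries, with Spearman's rho of 0.955 to 0.960 across 5025 to 5109 regions a pair (a description across regions, which are not replicates). The read depth behind the lists is unknown, so folds rank and describe peaks within a list. Where SNPC-4 and N2 folds stand side by side, each is relative to its own input and the difference between them was not tested. N2 library 3 had the shortest list and 14 peaks on the mitochondrial chromosome, against 0 in every SNPC-4 library and 1 and 0 in the other N2 libraries.

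Nearly all SmY, SL2 and RNase P type genes, about 8 in 10 tRNA and snRNA genes and about 6 in 10 piRNA genes had a SNPC-4 peak within the reach used here. For genes no longer than 500 bp the summit had to fall on the span or at most 200 bp from it, and for longer genes at most 200 bp from one of the ends. All 10 genes of SmY RNAs, which are nematode RNAs linked to trans-splicing, had a peak in every SNPC-4 library and in no N2 library. SL2 spliced leader genes stood at 94.4% of 18 in each SNPC-4 library, against 55.6%, 72.2% and 44.4% in N2. Transfer RNA genes stood at 82.0%, 80.0% and 81.5% of 634 in SNPC-4, against 35.5%, 39.7% and 15.3% in N2. For snRNA genes the values were 77.6%, 77.6% and 78.6% of 98 in SNPC-4, against 21.4%, 23.5% and 14.3% in N2. For piRNA genes they were 63.2%, 60.1% and 62.0% of 15363 in SNPC-4, against 0.104%, 0.208% and 0.0391% in N2. The piRNA share depends on the reach: its mean was 33.4% in SNPC-4 and 0.0499% in N2 at 100 bp, 90.5% and 0.584% at 500 bp, and 92.4% and 0.0998% where the whole peak region, not its summit, had to overlap the gene. Values of the groups did not overlap in any gene list, so this was not particular to the classes above. Protein-coding genes, for example, stood at 16.2%, 15.0% and 15.3% in SNPC-4, against 2.90%, 4.43% and 1.13% in N2. The SNPC-4 lists were also far longer than the N2 lists.

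Lower shares were seen for the remaining lists. Small nucleolar RNA (snoRNA) genes averaged 36.9% ± 1.01 in SNPC-4 and 21.1% ± 8.11 in N2, microRNA genes 16.7% ± 0.968 and 3.46% ± 2.00, histone genes 33.8% ± 2.12 and 13.9% ± 4.81, and protein-coding genes 15.5% ± 0.616 and 2.82% ± 1.65 (SD, n = 3 libraries each). Genes of the major sperm protein family, msp, which are expressed during spermatogenesis, averaged 19.4% ± 3.23 of 31 in SNPC-4 and were at 0 in every N2 library. Cuticle collagen genes, col, averaged 8.12% ± 0.979 of 156 in SNPC-4 and 3.85% ± 2.22 in N2. All 15 lists and the number of peaks gave p = 0.1, and an adjusted p of 0.1 over the 16 tests by the exact permutation test, so none can pass 0.05 in this design. The shares of microRNA, histone, msp, collagen, ribosomal protein, protein-coding and SL1 genes in SNPC-4 also moved by over 1.5 times with the reach, most of all for ribosomal protein genes, with means of 5.98% in SNPC-4 and 5.13% in N2 at 100 bp and 90.6% and 51.3% at 500 bp. By overlap of the peak region, collagen genes stood at 11.3% in both strains. When each list was shortened to its 947 most significant peaks, the difference in tRNA genes turned to 10.6% in SNPC-4 against 18.7% in N2, and 6 other lists turned as well.

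**Figure D1:**
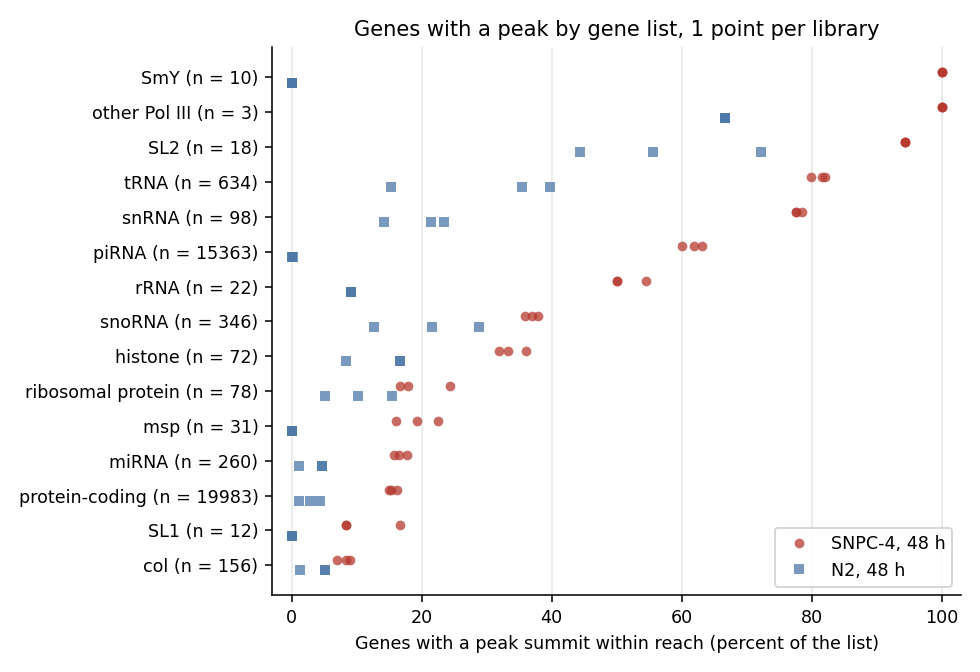
Percent of the genes of each list with a peak in each of 3 SNPC-4 (red circles) and 3 N2 (blue squares) libraries at 48 h, with the number of genes in each list. SmY genes stand at 100% in SNPC-4 and 0 in N2, and tRNA genes at 80.0% to 82.0% against 15.3% to 39.7%.

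A gene was called when it had a peak in all 3 SNPC-4 libraries and in no N2 library, which held for 10662 of 46926 annotated genes, or 22.7%. Most of these were piRNA genes. Of the 31563 other genes, 2801 were called, or 8.87%, and the opposite pattern (3 N2 libraries with a peak, 0 with SNPC-4) was found at 9 genes, or 0.0192% of all. Called genes made up 51.0% of snRNA genes, 51.2% of piRNA genes, 31.4% of tRNA genes and 40.9% of rRNA genes, against 10.4% of microRNA, 8.70% of protein-coding, 6.94% of snoRNA and 3.85% of ribosomal protein genes. The 9 genes of the opposite pattern included the tRNA genes B0491.t2 and B0212.t1 and the protein-coding genes pck-1, cogc-2 and tmem-231, with N2 folds of 1.49 to 3.41. The N2 summits near tmem-231 are also those of the neighbouring snoRNA gene T26A8.6, which had 218, 172 and 239 in SNPC-4, against 2.60, 3.41 and 2.72 in N2.

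The short RNA genes with the strongest SNPC-4 signal also had N2 peaks. All 53 short RNA genes outside the piRNA list with a median SNPC-4 fold of 100 or more also had a peak in at least 1 N2 library, and 39 of them in all 3. Below that fold the share with an N2 peak had no steady order: it was 18 of 33 at fold 50 to 100, 31 of 67 at 20 to 50, 122 of 184 at 5 to 20 and 214 of 415 under 5. The same held for regions: the 10 strongest, and 80 of the 100 strongest, were among those set aside, against 31.3% of all 8279. Of the regions with a fold of 100 or more, 1 was a member and 55 were set aside. Each strain's own folds can be given where both had a peak. At rpr-1, the RNA component of RNase P, they were 227, 224 and 230 in SNPC-4 and 3.67, 2.84 and 2.73 in N2. The member regions are therefore described together with the gene values, which keep these sites in view.

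Spliced leader genes of the SL2 family, which serve downstream genes of operons, had some of the highest folds of any class. The strongest was sls-2.4 with 224, 226 and 227 in SNPC-4, against 3.83, 3.62 and 2.81 in N2. Next came sls-2.8 with 221, 209 and 212 in SNPC-4, against 2.59, 2.45 and 2.50 in N2. The 3 SNPC-4 libraries lay close together at both genes. Of the 18 genes, 17 had a peak in all 3 SNPC-4 libraries with median folds of 42.0 to 226, and sls-2.6 had none in any. The 4 called genes were sls-2.10, sls-2.11, sls-2.12 and sls-2.17, with median folds of 42.0, 44.1, 52.5 and 85.1. All but sls-2.12 had a short RNA gene of another list within 500 bp. The other 13 had a peak in at least 1 N2 library, with N2 folds of 1.49 to 3.83.

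The SL1 spliced leader genes, which supply most trans-spliced messages, gave few peaks. None of 12 had one in all 3 SNPC-4 libraries, 9 had none, and sls-1.8 had folds of 7.77 and 7.09 in SNPC-4 libraries 2 and 3, at summits also within reach of the 5S gene rrn-4.8. SL1 genes alternate with 5S rRNA genes in a near-identical repeat on chromosome V, and how the authors treated reads that map to several places is not given in the sources used here, so absence of a peak there cannot be read as absence of SNPC-4. Of the 16 annotated 5S genes, rrn-4.x, which RNA polymerase III transcribes, 10 had a peak in all 3 SNPC-4 libraries and 9 were called. The called gene with the highest fold was rrn-4.12, with 16.9, 18.7 and 20.4 in SNPC-4 and no peak in N2. At rrn-4.7 the folds were 25.0, 26.1 and 22.8 in SNPC-4, against 2.32, 2.15 and 2.11 in N2. The same limit holds for these genes, and for identical copies among tRNA and snRNA genes.

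The other single genes of short structured RNAs and the SmY genes were occupied as well. The RNase MRP gene mrpr-1 had folds of 140, 153 and 163 in SNPC-4, against 2.44, 2.04 and 1.73 in N2. The Y RNA gene yrn-1 was called, with 30.1, 30.7 and 36.7 in SNPC-4 and no peak in N2. SmY genes spanned a wide range in SNPC-4: smy-1 had 75.6, 66.8 and 78.6, smy-10 had 50.0, 49.7 and 52.3, and smy-5 had 2.72, 2.34 and 3.23. The order of these 3 genes was the same in every SNPC-4 library.

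**Figure D2:**
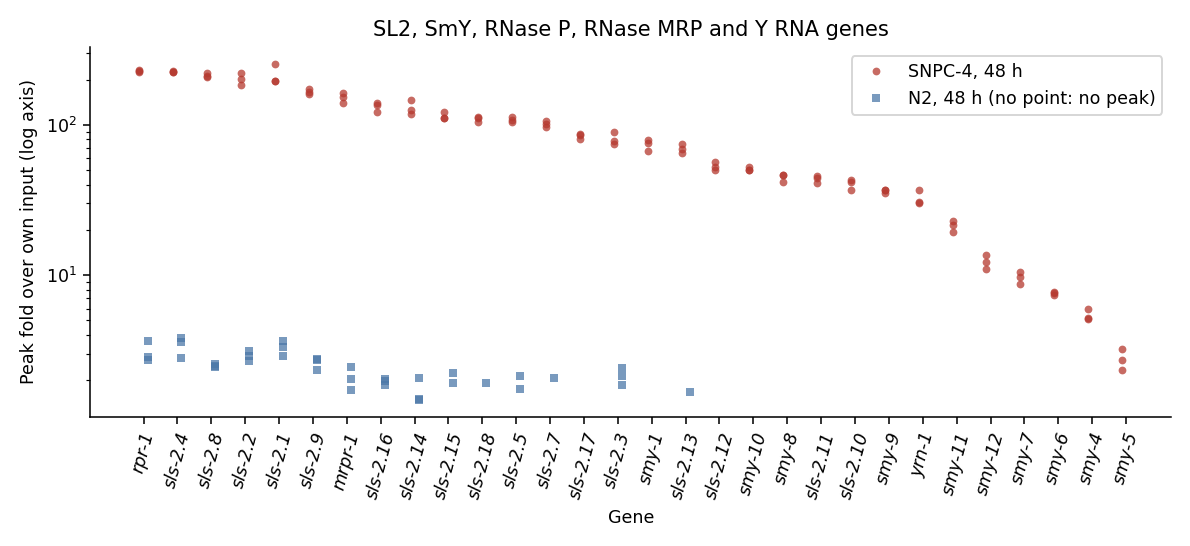
Peak fold over own input, on a log axis, at the SL2, SmY, RNase P, RNase MRP and Y RNA genes with a peak in all 3 SNPC-4 libraries. Red circles are the 3 SNPC-4 libraries and blue squares the N2 libraries, drawn only where a peak was listed. The SNPC-4 folds run from 2.34 at smy-5 to 253 at sls-2.1, and no N2 fold exceeds 3.83.

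Of the 98 snRNA genes, which include the SmY genes, 75 had a peak in all 3 SNPC-4 libraries, 50 were called and 20 had none. The median fold was 36.8 over the 75 and 17.2 over the 50 called. The highest was at sup-6, with 242, 184 and 210 in SNPC-4, against 3.64, 4.09 and 2.98 in N2. Among called genes with no short RNA gene of another list within 500 bp, ZK897.4 had 97.0, 85.2 and 98.6. R07E5.16 had 92.6, 99.9 and 94.7, and neither gene had an N2 peak. F07C6.5 with a median fold of 91.2, K09C6.12 with 64.0, ZK897.3 with 60.4 and F56H6.14 with 47.8 came next, while F54C8.8 stood at 2.81. The annotation gives no U-number to these genes, but their annotated lengths sort them. Grouped after the values were seen, all 13 genes of 156 to 170 bp had a peak in all 3 libraries (median fold 48.2), as did 11 of 12 of 121 to 126 bp (median 79.9) and 16 of 19 of 185 to 187 bp (median 36.5). The 22 genes of 101 to 102 bp were mixed: 17 had a peak in all 3, with a median fold of 6.92 and a range of 2.73 to 182. None of the 5 genes of 93 to 97 bp had a SNPC-4 peak in any library, and 1 of 10 genes of 104 to 119 bp had one in all 3.

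Transfer RNA genes were occupied widely but weakly. Of 634, 491 had a peak in all 3 SNPC-4 libraries with a median fold of 4.04, and 199 were called with a median of 3.26. The 292 others had a peak in at least 1 N2 library. The strongest called gene was ZC412.t1 on chromosome V, with 67.9, 78.4 and 80.9 in SNPC-4 and no N2 peak. It was followed by ZK1067.t1 with a median fold of 57.3, F11H8.t1 with 35.8, K12H4.t1 with 34.7, C06B8.t1 with 32.0 and Y40H7A.t2 with 21.9, and the lowest were K11H3.t1 with 1.58 and F49E7.t1 with 1.68. M01E5.t1 had a higher median, 165, but shares its peak with sls-2.9, which lies within 500 bp. Some tRNA genes with no short RNA gene of another list that near also exceeded ZC412.t1, but had N2 peaks. C27A2.t1 had 123, 136 and 118 in SNPC-4, against 2.09, 2.00 and 2.01 in N2. The median SNPC-4 fold was 98.2 at Y37A1B.t1 and 96.1 at K11H12.t1. The X chromosome holds 276 tRNA genes, of which 227 had a peak in all 3 SNPC-4 libraries, yet the highest median fold among them was 14.5. Outside the piRNA clusters the highest on an autosome ranged between 35.8 on chromosome III and 165 on chromosome I. The latter is M01E5.t1, with the peak shared with sls-2.9, and no other tRNA gene of chromosome I reached a median fold of 20.

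The tRNA genes inside the piRNA clusters had higher folds than those elsewhere. In the larger cluster 31 of 32 had a peak in all 3 libraries with a median fold of 28.4, and in the smaller cluster 7 of 9 with 23.3, against 453 of 593 outside with 3.85. These peaks lie among those of the surrounding piRNA genes, and the part of either in the fold was not tested. The 22 mitochondrial tRNA genes had no SNPC-4 peak, while 5 of them had one in N2. Annotated tRNA pseudogenes had a peak in all 3 SNPC-4 libraries at 24 of 209, or 11.5%, below the 15% of all genes other than piRNA genes. Of these 209, 15 were called, against 8.87% of all genes other than piRNA genes.

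The position of the SNPC-4 summit differed between gene classes. At SL2 genes no summit lay inside the gene, and the median distance from the gene's nearer end was 47, 49 and 48 bp in the 3 libraries. At snRNA genes 2.67%, 4.00% and 2.67% of strongest summits lay inside the gene, and the median distance outside was 42, 44 and 44 bp. The distances at SmY genes (39 to 40.5 bp) and at the RNase P, RNase MRP and Y RNA genes (39 to 43 bp) were alike in size. At tRNA genes, by contrast, 81.5%, 76.8% and 77.4% of strongest summits lay inside the gene itself. The annotation used gives no strand, so a distance is to the gene's nearer end, whichever end that is. Strongest summits of the 3 libraries agreed within a median of 3 bp at SL2, 4 bp at snRNA and 12 bp at tRNA genes.

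The tRNA share varied with the fold, but most summits lay inside the gene in each fold class. They did so at 276 of 333 tRNA genes with a fold under 5, or 82.9%, at 68.5% of 89 of fold 5 to 10, at 58.3% of 24 of fold 10 to 20, and at 34 of 45 of fold 20 or more, or 75.6%. Taking in each library all genes with a peak there gave 77.96% ± 2.47 inside in SNPC-4 and 52.2% ± 18.5 in N2 for tRNA genes, and 3.50% ± 0.779 and 28.1% ± 9.61 for snRNA genes (SD, n = 3 libraries each). For snoRNA genes the values were 12.0% ± 0.529 in SNPC-4 and 22.8% ± 1.95 in N2, and for SL2 genes 0% and 11.8% ± 10.5. The exact permutation p was 0.1 for tRNA, snRNA and snoRNA genes (adjusted p of 0.133 over 4 lists) and 0.4 for SL2 genes (adjusted p of 0.4). The N2 values rest on the 97 to 252 tRNA genes and 14 to 23 snRNA genes with an N2 peak. The same positions were seen in SNPC-4 worms at 72 h, whose libraries played no part above. There the tRNA share was 77.2%, 77.3% and 77.5%, and the snRNA share was 3.75%, 3.85% and 3.75%. Libraries of 2 other subunits of the complex varied more. For SNPC-1.1 at 56 h the tRNA share was 70.9%, 35.3% and 75.7%, and the snRNA share 2.56%, 0% and 2.60%. For SNPC-1.2 at 72 h the tRNA share was 73.9%, 61.4% and 58.7%. Its snRNA share was 38.0%, 28.6% and 30.4%, nearer to N2.

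Ribosomal RNA and snoRNA genes fell between these patterns. At the 11 rRNA genes that every SNPC-4 library marked 63.6%, 63.6% and 45.5% of summits lay inside. At 118 snoRNA genes 11.0%, 11.9% and 12.7% did. The snoRNA genes split with the fold: 29 of 32 genes with a fold of 50 or more had the summit 26 to 75 bp outside the gene, the distance seen at snRNA genes, against 20 of 76 with a fold under 10. The bounds of 26 and 75 bp and the fold limits were set after the values were seen. At piRNA genes, which are 21 bp long, the median distance was 91, 93 and 93.5 bp within the 200 bp searched, and 25.6% of genes had the summit 26 to 75 bp away, against 100% of SL2 and 84.0% of snRNA genes. Strongest summits near piRNA genes agreed within 20 bp in all 3 libraries at 32.0% of genes, against 89.3% at snRNA genes.

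**Figure D3:**
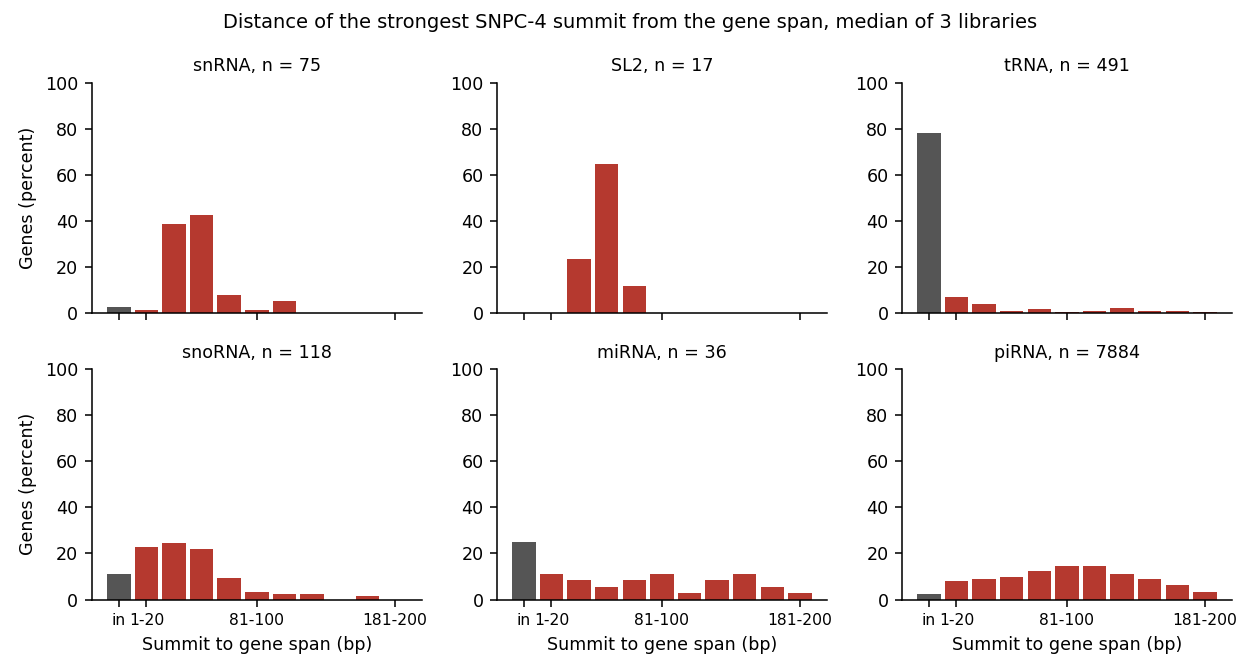
Distance of the strongest SNPC-4 summit from the gene span, as the median of the 3 libraries, for genes of up to 500 bp with a peak in all 3; bars give the percent of genes, grey for summits inside the gene and red for 20 bp steps outside it. Transfer RNA genes pile up inside the gene, snRNA and SL2 genes between 21 and 80 bp outside it, and piRNA genes are spread over the whole window.

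The snoRNA genes, which guide chemical modification of other RNAs, held some of the strongest sites of the genome, nearly all shared with N2. F59C6.15 had 257, 213 and 272 in SNPC-4, against 3.82, 2.89 and 2.45 in N2. Y37E3.20 had 224, 183 and 228 in SNPC-4, against 2.45, 2.14 and 2.37 in N2. Of the 118 with a peak in all 3 SNPC-4 libraries, 94 had a peak in at least 1 N2 library and 24 were called. Among called genes with no short RNA gene of another list nearby, the highest was a gene in the larger piRNA cluster with a median fold of 61.4. Next came ZK185.9 with 54.0, Y48A6C.10 with 42.0, T21F2.3 with 22.4, C02C6.13 with 14.4 and W07G1.23 with 13.3. The lowest were C54G4.16 with 1.71 and JC8.15 with 1.71. Of snoRNA genes inside a protein-coding gene span, 54 of 213 had a peak in all 3 SNPC-4 libraries, against 64 of 133 outside such spans.

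Among microRNA genes, whose products silence messenger RNAs, 27 of 260 were called. Both copies of mir-8196 were among the strongest: mir-8196.1 had 62.3, 60.3 and 67.4 and mir-8196.2 had 39.7, 34.8 and 37.7 in SNPC-4, with no N2 peak at either. The folds of mir-2214 were 48.6, 60.5 and 60.4 in SNPC-4, again with no N2 peak. Then the values dropped to a median of 14.0 at mir-49, 9.53 at mir-8193 and 8.55 at mir-273. At mir-789.1 the median was 1.57. The remaining called microRNA genes had median folds between those of mir-789.1 and mir-273, with let-7 at 1.98, and the called share of the list, 10.4%, was near the 8.87% of all genes other than piRNA genes.

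Of 15363 piRNA genes, 7861 were called, with a median fold of 5.11, and 4325 had no SNPC-4 peak. In the larger cluster 6142 of 11388 were called and in the smaller 1588 of 2816, against 131 of 1159 elsewhere. Protein-coding genes of the clusters were marked often as well. In the larger cluster 54.0% of piRNA and 60.0% of protein-coding genes had a peak in all 3 SNPC-4 libraries. These shares were 56.5% and 47.9% in the smaller cluster and 12.4% and 10.4% outside both. Genes over 500 bp were matched at either end. The median fold over piRNA genes that every SNPC-4 library marked was 5.55 in the larger and 3.56 in the smaller cluster. Elsewhere, 120 of the 131 called piRNA genes lay on chromosome IV outside the cluster bounds used here. Among piRNA genes with no other kind of short RNA gene nearby, the highest were 21ur-14429 and 21ur-916, which overlap and share a peak of 33.0, 30.4 and 33.1 in SNPC-4. Next were 21ur-3443 with a median of 30.7, the overlapping 21ur-12855 and 21ur-7757 with 29.4 and 21ur-1763 with 27.5, all in the larger cluster. The lowest were 21ur-3725 with 1.42 and 21ur-9473 with 1.44, both in the smaller. Summits inside the clusters were 698, 787 and 716 bp apart in the smaller and 634, 716 and 664 bp apart in the larger (medians), so a piRNA gene there often lies within 200 bp of a summit wherever the summit is centred.

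The broad regions of the clusters shaped what remained after regions were set aside. The larger cluster, taken here as a stretch of 3700 kb, had 299 member regions that covered 1549 kb and 56 set aside that covered 1665 kb, the widest of them 169665 bp. The smaller, taken as 2500 kb, had 411 members over 1116 kb and 54 set aside over 344 kb. In the larger cluster 2340, 2118 and 2287 summits lay in members and 2503, 2262 and 2412 in regions set aside, although only 11 of its 11388 piRNA genes had an N2 peak. One N2 peak anywhere in such a region removes all of it.

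By class, 384 member regions had a summit at a piRNA gene, 161 at a tRNA, 35 at an snRNA, 28 at a snoRNA and 27 at a microRNA gene, with each region assigned once and short RNA classes taken first. A further 1493, or 26.3%, were at a protein-coding gene end, and 3191, or 56.1%, had no annotated gene within reach of a summit. The share set aside was 12.3% at piRNA genes, 25.6% at no gene, 33.1% at protein-coding genes, 42.6% at snRNA, 61.3% at tRNA and 77.6% at snoRNA genes. Members had a median fold of 2.88, with a range of 1.35 to 111, and regions set aside had a median of 3.73. At snRNA genes the medians were 17.4 in members and 104 in those set aside.

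Most members lay away from the short RNA genes listed here. These are the piRNA, snRNA, SL1, SL2, tRNA, rRNA, snoRNA and microRNA genes with rpr-1, mrpr-1 and yrn-1. Other genes annotated as ncRNA, and tRNA pseudogenes, were not counted as short RNA genes. Of all 7762 genes annotated as ncRNA, 1305, or 16.8%, had a peak in all 3 SNPC-4 libraries. This is near the 15% of all genes other than piRNA genes. Of the 5687, 4920, or 86.5%, had no short RNA gene, piRNA genes included, within 500 bp. Their median fold was 2.81 and their median width 486 bp. The strongest summit lay inside the span of a protein-coding gene at 2004 of them and outside every annotated gene at 2678. Its median distance from the nearest protein-coding gene end was 571 bp, within 200 bp at 25.5% and over 1000 bp at 37.2%, so most of these sites were not at annotated gene ends.

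Among them were some of the strongest members of all. The member with the highest fold, III:11463369-11466111, lay within bed-2, with folds of 111, 92.9 and 130 in the 3 SNPC-4 libraries. The region I:13858977-13860564 in W04A8.6 had 87.7, 93.5 and 99.5. Others were III:5636909-5638560 in ckk-1, a calcium/calmodulin-dependent kinase kinase gene, with a median of 83.5, II:9787112-9789501 between the cytochrome P450 genes cyp-13A2 and cyp-13A3 with 81.3, and V:20802937-20804097 near Y44A6D.5 with 68.3. The region II:14640017-14643230 over atgp-2 and lfor-2 had 65.1, V:20088127-20089218 in dcs-1, a messenger RNA decapping scavenger gene, had 52.9, and IV:1762669-1764579 had 55.1 and overlapped no annotated gene. The sequence under these summits was not analysed here.

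Strong members away from short RNA genes were concentrated on chromosome arms. There were 492 with a median fold of 10 or more, a limit set after the values were seen, all of them called in all 3 libraries. Of these, 53, or 10.8%, lay in the central part of their chromosome, the third around its midpoint (its length taken to the end of the last gene), against 37.8% of nuclear protein-coding genes. Taking each library's own fold the counts were 52 of 476, 54 of 475 and 55 of 554. On the X chromosome 2 of 139 were in the central part, while 35.8% of its protein-coding genes were. The autosomes ranged between 11.9% of 101 on chromosome V and 21.3% of 47 on chromosome IV. Weak members did not show this arrangement to the same degree: the central part held 32.6% of the 952 with a fold under 2, 31.1% of those of 2 to 3, 26.9% of those of 3 to 5 and 12.4% of those of 5 to 10. Within the strong members it held 8.77% of the 365 of fold 10 to 20 and 16.5% of the 127 of fold 20 or more, of which the autosomes had 20 of 90 and the X chromosome 1 of 37. Over all folds, the central part held 25.9% of the 4920 members away from short RNA genes. Among the 2058 regions away from short RNA genes that had been set aside for an N2 peak, also of all folds, it held 37.7%. The positions are counts, with no test, since neighbouring sites are not independent.

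**Figure D4:**
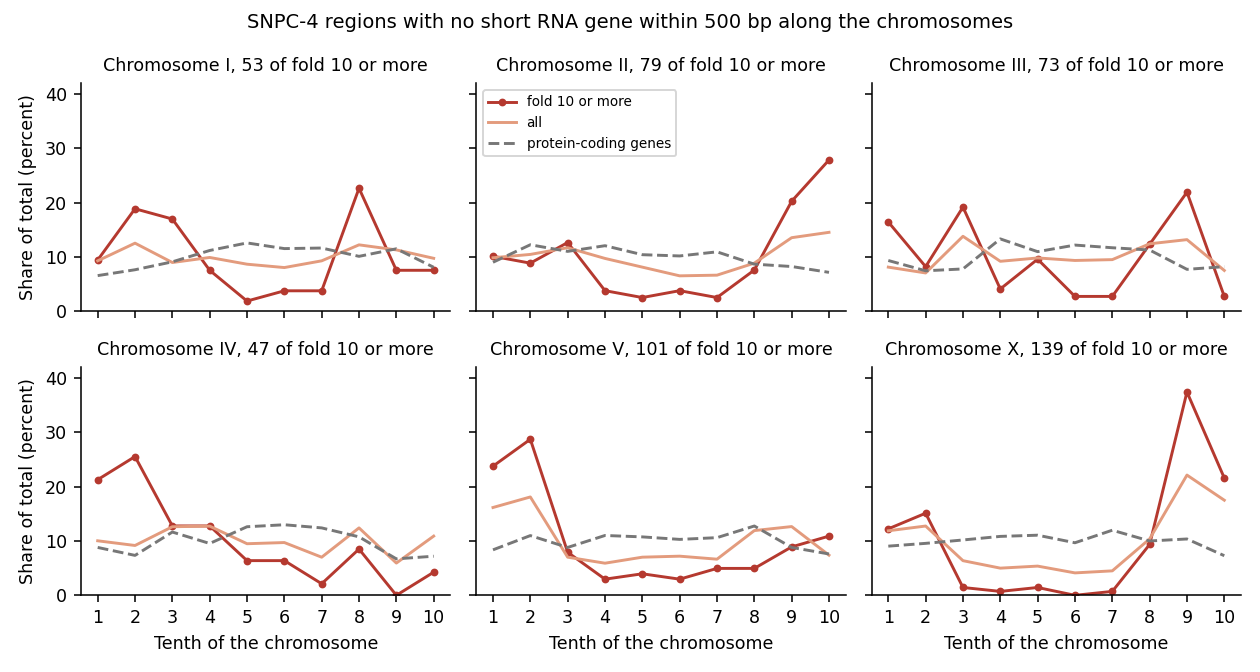
Share of each chromosome's total in each of 10 equal steps of its length for members with no short RNA gene within 500 bp and a fold of 10 or more (red, circles), all such members (orange) and protein-coding genes (grey, dashed). Chromosome X has 139 of the strong sites, with 2 in the central part, and the 52 in step 9 of 10 make the highest point of that panel.

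These 492 strong sites had a median width of 880 bp. The strongest summit was inside a protein-coding gene span at 298 of them, or 60.6%, and 396 were not within 200 bp of any gene end or short gene. Every one of the 492 was also overlapped by a peak in each of the 3 libraries of SNPC-4 worms at 72 h, of snpc-1.3(-) worms at 48 h and of snpc-1.2(-) worms at 72 h, all with tagged SNPC-4. All 492 had a peak in 2 of 3 SNPC-1.1 libraries, which came from germline nuclei at 56 h, and 328 in the remaining one, which has the shortest list. In SNPC-1.2 libraries of 72 h worms 20, 16 and 10 of the 492 had a peak, or 4.07%, 3.25% and 2.03%. Of all members away from short RNA genes, 86.0%, 10.1% and 75.2% had a peak in the SNPC-1.1 libraries. In the SNPC-1.2 libraries the shares of these members were 24.6%, 14.3% and 4.23%. SNPC-1.1 and SNPC-1.2 are alternative subunits of the complex. These libraries differ in age, tissue and list length from each other, so the counts stand side by side and no difference between the subunits was tested.

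Protein-coding genes were called at 1738 of 19983, or 8.70%, close to the share of all genes other than piRNA genes. By place, 255 of 458 were called in the larger and 216 of 480 in the smaller piRNA cluster, against 1267 of 19045 outside them. With no short RNA gene within 500 bp, W01D2.3 on chromosome II had the highest fold, 116, 128 and 136 in SNPC-4 and no N2 peak at its ends. Its fold exceeds that of every member region, so the region around it is among those set aside. The major sperm protein gene msp-50 had 59.1, 58.3 and 69.5 in SNPC-4 and no N2 peak. C33E10.10 with a median fold of 41.1, mrp-5, a transporter gene of the ABC family, with 40.1, Y49A3A.4 with 33.3 and Y25C1A.2 with 33.3 followed, while atg-4.1 and T24F1.7 had 1.35 and 1.39. Of 31 msp genes 5 were called, and away from msp-50 their folds were low. They were 1.75 at msp-19 and 1.71 at msp-59, both in the smaller piRNA cluster.

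Histone genes were called at 7 of 72, or 9.72%, near the 8.87% of all genes other than piRNA genes. The highest was his-67 with 33.7, 24.3 and 27.4 in SNPC-4, and the neighbours his-5 and his-6 share a peak with a median of 7.14. Then came his-66 with 3.83, his-16 with 2.38, and his-31 and his-32, which share a peak of 2.24. A further 15 with a peak in all 3 SNPC-4 libraries also had one in N2. Ribosomal protein genes were called at 3 of 78, or 3.85%, below that background. All 3 lie in the larger piRNA cluster on chromosome IV, with median folds of 17.9 at rpl-18, 3.87 at rpl-29 and 1.97 at rps-18. Collagen genes were called at 6 of 156, also 3.85%, among them col-120 with a median of 3.299 and col-122 with 2.80.

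The genes of the complex itself were mostly weak or without a peak. Of 8 SNAPc subunit genes found in the annotation, 4 had a SNPC-4 peak in all 3 libraries and none was called. The subunit gene snpc-3.1 had 14.9, 14.3 and 12.5 in SNPC-4 and a fold of 1.83 in 1 N2 library. It lies in the smaller piRNA cluster, where 230 of 480 protein-coding genes had a peak in all 3 SNPC-4 libraries. At snpc-1.1 the SNPC-4 folds were 3.47, 3.21 and 3.47, at snpc-3.4 the median was 4.61 and at snpc-3.2 2.34, each with an N2 peak in at least 1 library. No SNPC-4 peak was listed at snpc-4, snpc-1.3 or snpc-3.3.

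Of 16 genes of the piRNA pathway and its regulators found in the annotation, 5 were called, against 8.87% of all genes other than piRNA genes, and these genes were named with earlier results known. The highest was gtsf-1, a small RNA pathway factor, with 11.8, 11.1 and 10.4 in SNPC-4 and no N2 peak. This gene lies in the larger piRNA cluster, where 255 of 458 protein-coding genes were called. The piRNA processing genes tost-1 and pid-1 had medians of 2.78 and 2.41, tofu-1 had 2.38, and tra-1, the terminal regulator of sex determination, had 2.17. The cofactor gene tofu-6 had 4.34, 5.33 and 3.41 in SNPC-4, against 2.32, 2.76 and 2.35 in N2. No SNPC-4 peak was listed at 6 genes, among them unc-130, tofu-4 and the methyltransferase gene henn-1, and prg-1 had a fold of 1.91 in 1 SNPC-4 and 1.497 in 1 N2 library.

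Member regions were found again in other SNPC-4 lists more often the stronger they were. In snpc-1.3(-) worms of the same age 89.7%, 89.9% and 90.7% of them had a peak, and in SNPC-4 worms at 72 h 84.5%, 81.4% and 85.2%. The worms collected at 48 h and 72 h could come from the same cultures, since animals left after the first harvest were moved on. Of members with a fold of 10 or more all had a peak in all 3 libraries of SNPC-4 worms at 72 h, against 41.7% of those with a fold under 2. Members with no peak in any library at 72 h numbered 623, or 11.0%, with a median fold of 1.94, and 62 had none in the snpc-1.3(-) libraries either. Peaks of the N2 libraries of the same dataset at 72 h overlapped 5.19%, 2.80% and 14.8% of members.

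**Figure D5:**
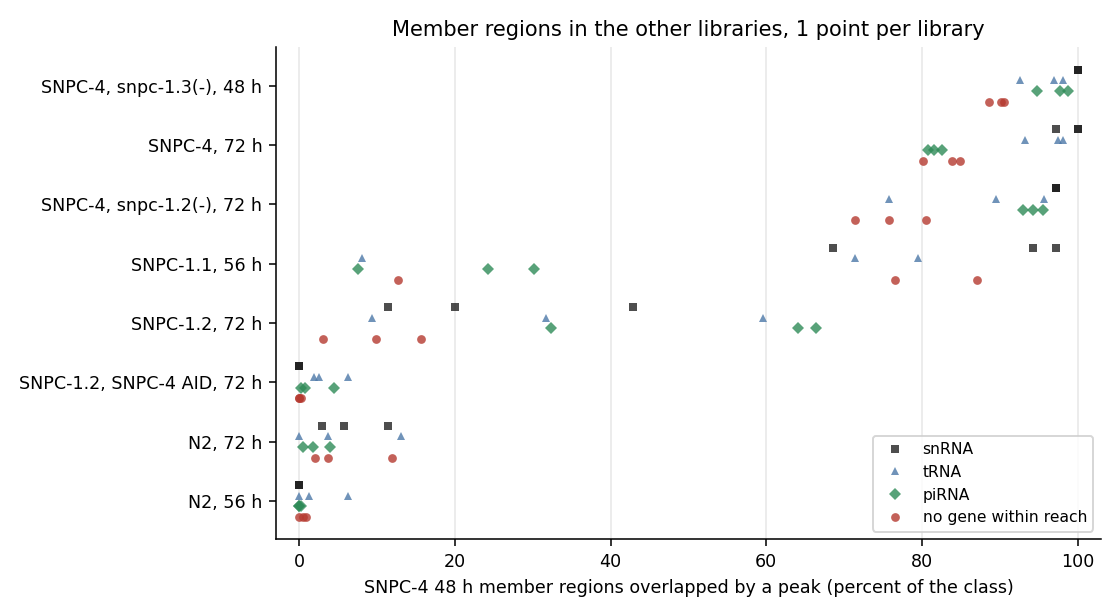
Percent of member regions at snRNA, tRNA and piRNA genes and with no gene within reach that overlap a peak in each library of the other groups, with 1 point per library. Regions at piRNA genes lie at 93.0% or more in both mutant strains with tagged SNPC-4, at 7.55% to 30.2% in SNPC-1.1 and at 32.3% to 66.4% in SNPC-1.2.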

How the data were processed

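Each IP library has 1 peak list, called with MACS2 2.1.2 against WBcel235, per the submitters' processing notes; the aligner and read filters are not given in the sources used here. The deposited lists give a ratio (fold over input), the −log10 of the q-value, and a summit offset in bp, another kind of value. No read counts were used, so depth and counting error are unknown. Nothing says whether replicates were separate cultures, so p-values measure only the spread between libraries.

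Regions were merged in Python (pandas 2.3.3) at 1 bp of overlap, and genes came from a RefSeq table of WBcel235 with 46926 genes, without strand, exons or sequence. The planned rule for 5′ ends was therefore replaced by either end. For most lists of over 20 genes the text names up to 6 called genes with the highest and up to 2 with the lowest fold. These have no short RNA gene of another list within 500 bp, while genes of the same list may lie nearer. In the rRNA list it instead names rrn-4.12, which has a short RNA gene of another list nearby, and rrn-4.7, which was not called. The collagen gene col-94 was left out. Most of the 10 highest regions away from short RNA genes are named as well. Members and lists were chosen with earlier results of these data known. On simulated lists 200 of 200 placed genes were recovered. The simulated summits lay within the reach used, so this checks the code and not the sensitivity on real lists. No library was taken as a duplicate, since 2 lists of a group shared at most 2.58% of summits at the same base.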

Additional observations from a re-analysis of the deposited data

How the results depend on the processing

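Under all 13 alternatives the number of member regions stayed within 1.5 times of 5687, at 4234 to 6843, and at 5070 to 6543 when 1 library was left out. The regions set aside, 2592, were 1694 with peaks of −log10 q of at least 5 and 129 with a fold of at least 3, and 1736 to 2539 when 1 library was left out. The 10662 called genes became 5007 at 100 bp, 17997 at 500 bp, 18453 by overlap of the region with the gene and 334 when every list was shortened to 947 peaks, with 231 of the opposite pattern, and 10712 to 11636 when 1 library was left out. Of 195 values for the gene lists, 7 turned direction and 3 came to 0. Among these was the collagen list by overlap of the region with the gene, at 0, and the others came from shortened lists, where the difference in percent (SNPC-4 minus N2) was −8.15 for tRNA, −4.72 for snoRNA, −0.128 for microRNA, −2.78 for histone, −1.28 for ribosomal protein, −1.07 for collagen and −0.707 for protein-coding genes, and 0 for SL1 and rRNA genes. The cause was not tested.

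With the replicate block, the count of called genes, taken as genes with a peak in SNPC-4 and none in N2 in at least 2 of 3 same-numbered pairs and the opposite in none, was within 1.5 times of the unpaired count, at 13862, and the smallest p within pairs was 0.25, so no list could pass. Same-numbered SNPC-4 and N2 libraries did not deviate together (correlations of −0.00538, −0.00322 and 0.00721). Their library names are numbered consecutively within each replicate. With N2 lists this short, the correlations cannot show whether same-numbered libraries were prepared together. The results below and their alternatives were chosen after seeing the data. The percent of strong members in the central part of a chromosome was 10.8 and became 12.7 when regions were set aside only where N2 peaks cover most of them, and 12.7 with a fold of at least 3. Summits inside snRNA genes ranged between 2.67% and 3.95% when 1 SNPC-4 library was left out, and snoRNA genes gave 10.4% with a fold of at least 3. The planned look at promoter sequence was not run, since no sequence was used here.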
